A study of Homo sapiens with 24 samples.

Results

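The 14-3-3 protein family was followed in 4 human cancer cell lines after knockdown of IGF2BP1. Its members were taken as the 7 gene rows whose symbol is YWHAZ, YWHAB, YWHAE, YWHAG, YWHAH, YWHAQ or SFN, out of 58174 genes listed in each of the 4 tables. The lines were A549 (lung cancer), ES2 (ovarian cancer), MV3 (amelanotic melanoma) and PANC1 (pancreatic cancer), all grown in DMEM with FBS. In each line 3 libraries came from cells given a control siRNA (siC) and 3 from cells given a pool of siRNAs against IGF2BP1 (siI1). Cells were collected 72 h after transfection, and PANC1 cells after 96 h. Total RNA was depleted of ribosomal RNA and sequenced with a strand-keeping kit. The deposited value of a gene is its FPKM, the reads per kilobase of gene length, scaled to an adjusted size of the library. In PANC1 this size was 1.07, 1.00 and 1.10 times the reads assigned to genes in siC and 0.96, 0.91 and 0.97 times in siI1. The methods call the 3 libraries of a group biological replicates, each line is a single cell line, and PANC1 differs from the other lines also in its time point.

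The 14-3-3 proteins are small acidic adaptor proteins that work as dimers. They bind other proteins at phosphorylated serine or threonine sites and so hold kinases, transcription regulators, cell cycle phosphatases and death-promoting proteins in one state or one compartment of the cell. Each isoform has its own gene: YWHAB encodes 14-3-3 beta, YWHAG gamma, YWHAE epsilon, YWHAH eta, YWHAQ theta (also named tau), YWHAZ zeta and SFN sigma. Most of them are made in nearly every tissue, while sigma belongs mainly to epithelial cells and is a known target of p53. IGF2BP1 is an RNA-binding protein of the embryo and of many tumours that holds to mRNAs and often protects them from decay.

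A549 libraries were the shallowest, with 3105215 to 4553326 reads assigned to genes, and MV3 libraries the deepest, with 15572492 to 20082702. ES2 had 6421764 to 8419467 reads and PANC1 6532175 to 8472851. The targeted gene, IGF2BP1, was lower in siI1 in each line. Its FPKM (mean ± SD, n = 3) was 11.1 ± 0.15 and 2.78 ± 0.080 in PANC1 siC and siI1, 9.26 ± 0.32 and 2.91 ± 0.13 in MV3, 13.1 ± 0.91 and 4.14 ± 0.10 in ES2, and 39.7 ± 0.074 and 15.6 ± 0.67 in A549. Keratin 8 led the epithelial markers in A549 and PANC1, and vimentin led the mesenchymal markers in all 4 lines. Markers of the tissue of origin were near 0: of the 6 melanocytic markers none reached 0.5 FPKM in MV3, of the 4 lung markers none did in A549, and of the 3 ovarian markers none did in ES2, while the 4 blood cell markers summed to at most 0.11 FPKM in any library. The second and the third siC library of PANC1 differed most of all replicate pairs, with a chi-square per gene of 15.1. This measure grows with depth. The closest pair, of A549 siI1, had 1.54 in the shallowest line, and pairs of MV3, the deepest, reached 4.65. The first siC library of PANC1 differed from the second and the third by 5.87 and 4.70. YWHAZ and SFN in PANC1 are therefore also given without the second and without the third. The PANC1 calls of YWHAE, YWHAG and YWHAQ passed without either. Small 7SL RNAs made up 58.1 to 67.3% of the summed FPKM in PANC1 siC and 74.6 to 78.8% in PANC1 siI1, and when libraries were rescaled to 1 common sum the PANC1 median over all genes went from -0.04 to -0.68 on the log2 scale.

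YWHAZ, the gene of 14-3-3 zeta, was the member whose fall passed the test in all 4 lines. YWHAH passed as lower in 3 lines and YWHAG in 2, and the estimates of both were below 0 in all 4. YWHAQ rose in 2, YWHAB rose in 1, YWHAE rose in 1 line and fell in another, and SFN passed the test in none. Changes were tested in each line by limma on log2(FPKM + 0.5) with Benjamini-Hochberg adjustment over every gene that averaged 0.5 FPKM or more, at a threshold of 0.05. In A549, 2 of the 7 members were lower and 1 was higher, against 7.83% and 5.93% of the 18411 genes tested. In ES2, 2 of 6 were lower and 0 higher, against 13.0% and 10.5% of 16920 genes. In MV3, 4 of 6 were lower and 1 was higher, against 19.5% and 16.3% of 16380 genes. In PANC1, 2 of 7 were lower and 2 higher, against 13.4% and 11.3% of 15846 genes. In all, 10 of the 26 tested combinations of member and line were lower, 4 were higher and 12 did not pass. A tested member had at least 116 reads in each library, the lowest being SFN in A549. The FPKM scale is relative within a library, so a fall in a member's RNA per cell and a rise of the other RNAs cannot be told apart, nor can fewer cells that make it and less RNA in each.

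**Figure D1:**
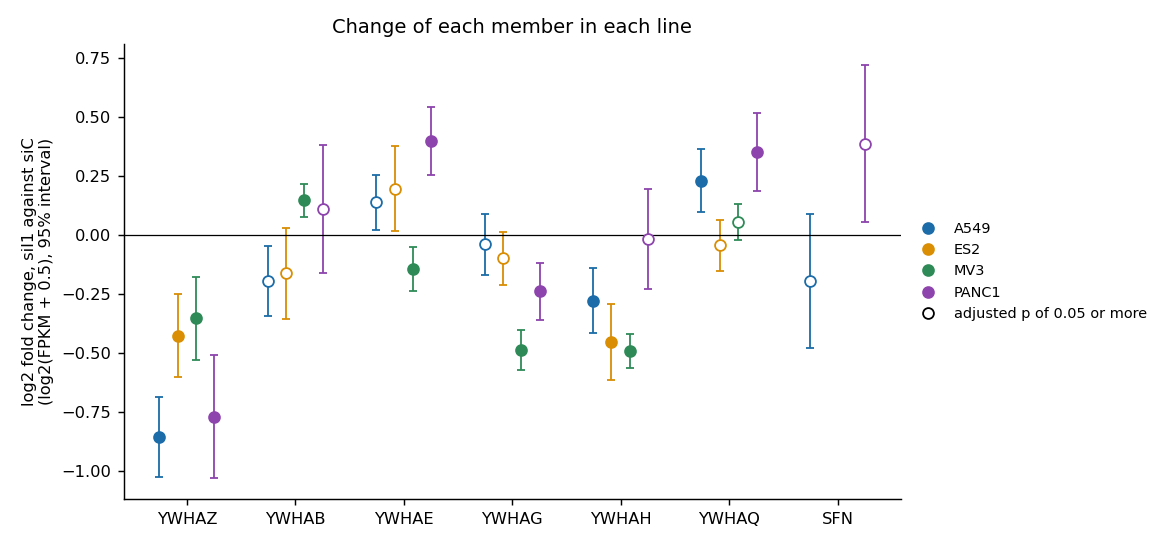
Log2 fold change of each 14-3-3 gene, siI1 against siC, on the log2(FPKM + 0.5) scale (y axis), for each member (x axis) and line (colour). Points are limma estimates with 95% intervals, and open points have an adjusted p of 0.05 or more. YWHAZ lies below 0 in all 4 lines, from -0.86 to -0.35, with no open point. YWHAG (-0.49 to -0.04) and YWHAH (-0.49 to -0.02) also lie below 0 in all 4 lines, with some open points. YWHAB, YWHAE, YWHAQ and SFN have points on both sides of 0, and SFN was not tested in ES2 and MV3.

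YWHAZ lies on chromosome 8 (hg38, chr8:100916523-100953388, minus strand in GENCODE 44), and its MANE Select transcript has 6 exons and 5011 bases. In A549 its FPKM was 59.0, 70.2 and 62.9 in the siC libraries and 35.3, 34.3 and 35.5 in the siI1 libraries. All siI1 libraries lay well under all siC libraries, and the mean fell to 54.8% of the control (log2 fold change -0.86, SE 0.070, adjusted p = 0.00152). In PANC1 YWHAZ had 66.1, 83.3 and 66.1 FPKM in siC and 40.5, 39.4 and 45.4 in siI1, or 58.1% of the control on average (log2 fold change -0.77, SE 0.11, adjusted p = 0.0048). The high siC value is that of the second library, and the other siC libraries were still above every siI1 library. YWHAZ passed without the second siC library (log2 fold change -0.66, adjusted p = 0.00591, limma) and without the third (-0.82, adjusted p = 0.0118, limma).

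In ES2 the fall of YWHAZ was smaller, from 67.6, 75.9 and 63.2 FPKM to 53.1, 49.7 and 50.2 FPKM (log2 fold change -0.43, SE 0.073, adjusted p = 0.00884). In MV3 it went from 77.9, 74.98 and 79.3 FPKM to 56.3, 57.9 and 67.9 FPKM (log2 fold change -0.35, SE 0.073, adjusted p = 0.0115). The groups did not overlap in either line, and the third siI1 library of MV3 lay nearest to the controls. Among all genes tested, the YWHAZ change stood at percentile 6.09 in A549, 6.37 in PANC1, 12.8 in MV3 and 13.7 in ES2, counted from the strongest fall. The change of YWHAZ itself differed between the lines (adjusted p = 0.00648 for the interaction of line and treatment, limma over the 24 libraries). YWHAZ passed the test under all 15 alternative settings in each line.

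**Figure D2:**
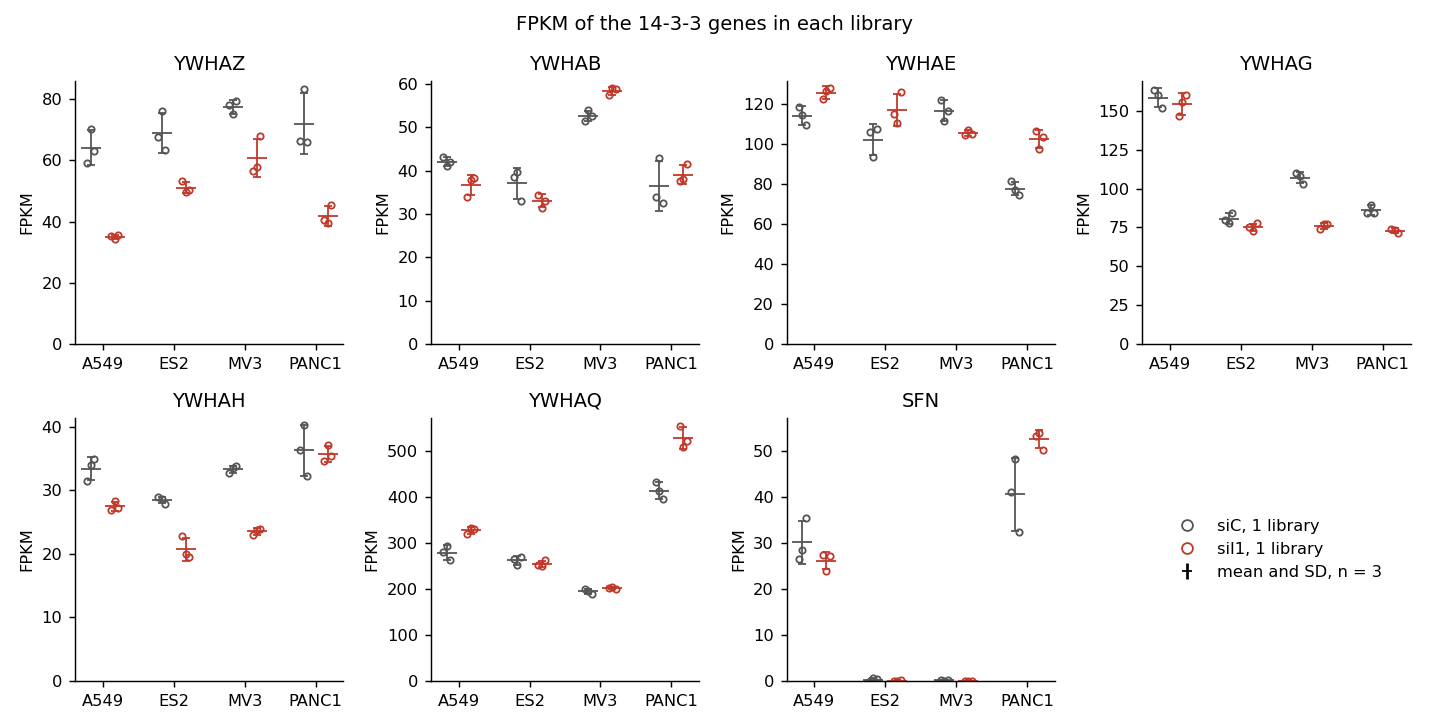
FPKM of each 14-3-3 gene (1 panel per gene, y axes from 0 and different between panels) in the 24 libraries, by line and treatment. Open circles are libraries, bars the mean and SD of 3. In the YWHAZ panel every siI1 library lies under every siC library of its line, while YWHAQ in PANC1 lies at 395 to 432 FPKM in siC and 507 to 553 FPKM in siI1.

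YWHAB, the gene of 14-3-3 beta, has the coding sequence closest to that of YWHAZ, with 73.9% identical columns in a global alignment of the MANE Select coding sequences. It lies at chr20:44885702-44908532 on the plus strand. Its changes were small, and their direction differed between lines. In MV3 it rose from 51.4, 53.8 and 52.6 FPKM to 57.3, 58.9 and 58.7 FPKM, with no overlap (log2 fold change 0.15, SE 0.029, adjusted p = 0.00959). The call was lost with libraries rescaled to 1 common FPKM sum (0.14, adjusted p = 0.0995, limma). In A549 it had 43.2, 41.1 and 41.9 FPKM in siC and 34.0, 37.8 and 38.3 FPKM in siI1 (log2 fold change -0.20, 95% interval -0.34 to -0.05, adjusted p = 0.0904). The groups did not overlap there either, but the difference did not pass the adjusted threshold. In ES2 and PANC1 the groups overlapped, with intervals of -0.35 to 0.03 and -0.16 to 0.38. Without the third siC library of ES2, YWHAB passed there as lower (-0.24, adjusted p = 0.0423, limma).

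YWHAQ, the gene of 14-3-3 theta at chr2:9583967-9630997 (minus strand), had the highest FPKM of the family in all 24 libraries and moved the opposite way to YWHAZ in A549 and PANC1. In PANC1 it had 432, 412 and 395 FPKM in siC and 553, 507 and 521 FPKM in siI1 (log2 fold change 0.35, SE 0.069, adjusted p = 0.0144). In A549 it had 281, 293 and 262 FPKM in siC and 318, 332 and 330 FPKM in siI1 (log2 fold change 0.23, SE 0.055, adjusted p = 0.0414). In FPKM each siI1 library was above each siC library in both lines, though the A549 call rested close to the threshold. It was lost without any 1 of the 3 siI1 libraries or the first or the third siC library of A549 (adjusted p from 0.075 to 0.126), and the PANC1 call without the first siI1 library (adjusted p = 0.0662). With no filter on low values neither call passed (adjusted p = 0.0973 in A549 and 0.0658 in PANC1, limma). In ES2 the groups overlapped, at 251 to 269 FPKM in siC and 249 to 262 FPKM in siI1 (95% interval -0.15 to 0.06). In MV3 they lay at 189 to 199 and 200.03 to 204 FPKM (95% interval -0.02 to 0.13).

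YWHAE, the gene of 14-3-3 epsilon at chr17:1344275-1400222 (minus strand), is the member least like the others, with 60.3 to 63.7% identical columns in the coding alignments. It rose in PANC1 from 81.4, 76.8 and 74.6 FPKM to 107, 97.5 and 103 FPKM (log2 fold change 0.40, SE 0.059, adjusted p = 0.00574). It fell in MV3 from 122, 111 and 116 FPKM to 104, 107 and 105 FPKM (log2 fold change -0.14, SE 0.039, adjusted p = 0.0287). The groups did not overlap in either line, and the change in MV3 was the smallest that passed. It was lost without any 1 of the 3 siI1 libraries or the first or the third siC library of MV3 (adjusted p from 0.0597 to 0.0885), and with no filter on low values (adjusted p = 0.0567). In A549 YWHAE lay at 109 to 118 FPKM in siC and 122 to 128 FPKM in siI1, and in ES2 at 93.3 to 107 and 110 to 126 FPKM. Neither difference passed the adjusted threshold (adjusted p = 0.118 and 0.112), although each siI1 library was above each siC library.

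In PANC1 the rises of YWHAQ and YWHAE depend on the scaling. The library sizes behind the deposited FPKM lie above the assigned reads in siC and below them in siI1. Per assigned read the YWHAQ groups overlapped, with 8431 of 6723908 in the first siC library and 8273 of 6643322 in the second siI1 library. Fits scaled by the assigned reads alone were not run. With all PANC1 libraries rescaled to 1 common FPKM sum, the log2 fold change of YWHAQ was -0.40 and that of YWHAE -0.35, while YWHAZ stood at -1.52. Relative to the median of all genes under that scaling, YWHAQ was at 0.28, YWHAE at 0.33 and YWHAZ at -0.83. YWHAQ and YWHAE did not pass under that scaling (adjusted p = 0.0514 and 0.096, limma). YWHAB and SFN turned to negative values under it, -0.64 and -0.36, which passed as lower (adjusted p = 0.00678 and 0.0354, limma), and stood at 0.05 and 0.32 relative to the same median. YWHAH, which overlapped between the groups in the deposited values, passed as lower at -0.76 (adjusted p = 0.00241, limma) and YWHAG at -0.99 (adjusted p = 0.00155, limma), or at -0.08 and -0.31 relative to that median. Sums outside the 7SL RNA rows ranged from 220290 to 247224 FPKM in PANC1 siC and from 247839 to 252047 FPKM in PANC1 siI1.

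SFN, the gene of 14-3-3 sigma, is a single-exon gene at chr1:26863149-26864456 (plus strand) and was the member whose level differed most between lines. Levels of different lines come from tables scaled separately and are set side by side without a test. It had 26.6, 28.6 and 35.4 FPKM in A549 siC and 27.3, 23.99 and 27.2 FPKM in A549 siI1, where the groups overlapped (log2 fold change -0.19, 95% interval -0.48 to 0.09, adjusted p = 0.344). In PANC1 it had 41.1, 48.2 and 32.4 FPKM in siC and 53.4, 54.0 and 50.3 FPKM in siI1 (log2 fold change 0.39, 95% interval 0.05 to 0.72, adjusted p = 0.0915). The groups did not overlap in PANC1, but the spread of the siC libraries was wide and the adjusted p missed the threshold. SFN passed as higher without the second siC library (0.52, adjusted p = 0.0256, limma) and missed the threshold without the third (0.24, adjusted p = 0.117, limma). In ES2 SFN had 0 to 5 reads per library, and in MV3 1 to 4 reads, so it was not tested there and no fold change is given. The summed epithelial markers, EPCAM, CDH1 and 4 keratins, ranged from 1144 to 1249 FPKM in A549 siC and from 526 to 557 FPKM in A549 siI1, and from 1342 to 1765 and from 2061 to 2214 FPKM in PANC1, with all 6 markers above 0.5 FPKM in both lines. In MV3 they summed to 22.7 to 24.3 FPKM in siC and in ES2 to 151 to 167 FPKM, with 3 of 6 above 0.5 FPKM in each. The part of this marker level in the SFN level was not tested.

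YWHAG, the gene of 14-3-3 gamma at chr7:76326799-76358991 (minus strand), and YWHAH, the gene of 14-3-3 eta at chr22:31944522-31957603 (plus strand), are the most alike pair in coding sequence (78.5% identical columns), and both fell in MV3. The longest stretch their MANE Select transcripts share is 39 bases, at coding bases 34 to 72 of both genes. It is printed in capitals with 15 bases on each side, to show how far reads can separate the closest members:
YWHAG: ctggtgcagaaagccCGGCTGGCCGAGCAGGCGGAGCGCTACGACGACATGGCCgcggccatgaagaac
YWHAH: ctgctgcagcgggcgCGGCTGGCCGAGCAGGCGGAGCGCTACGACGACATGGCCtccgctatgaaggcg
Reads were 76 bases long, so none that matches a member's MANE Select transcript exactly over its whole length could come from another member's.

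YWHAG fell in MV3 from 110, 108 and 103 FPKM to 74.0, 77.1 and 77.3 FPKM (log2 fold change -0.49, SE 0.036, adjusted p = 0.000291). YWHAH fell in MV3 from 32.6, 33.4 and 33.8 FPKM to 22.9, 23.8 and 23.9 FPKM (log2 fold change -0.49, SE 0.030, adjusted p = 0.00019). The groups of both genes were far apart and the spread within them was small. In each of the other lines 1 of the pair passed, and the difference between the genes was not tested. YWHAH fell in ES2, from 28.9, 28.6 and 27.9 FPKM to 22.7, 19.9 and 19.4 FPKM (log2 fold change -0.45, SE 0.067, adjusted p = 0.00525), and YWHAG had 77.6 to 84.3 FPKM in siC and 72.9 to 77.6 FPKM in siI1 (95% interval -0.21 to 0.01). In A549 YWHAH had 31.5, 33.9 and 34.9 FPKM in siC and 26.9, 28.3 and 27.2 FPKM in siI1 (log2 fold change -0.28, SE 0.057, adjusted p = 0.0257). Its A549 call was lost without any 1 of the 3 siI1 libraries or the second or the third siC library (adjusted p from 0.0622 to 0.0796). YWHAG overlapped between the A549 groups at 152 to 163 and 147 to 160 FPKM.

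In PANC1 YWHAG fell, from 84.6, 89.7 and 84.1 FPKM to 74.2, 73.4 and 71.2 FPKM (log2 fold change -0.24, SE 0.050, adjusted p = 0.018). YWHAH lay at 32.2 to 40.3 FPKM in siC and 34.6 to 37.1 FPKM in siI1 there, with overlapping groups (95% interval -0.23 to 0.19). The PANC1 call of YWHAG was lost without the first siC library or any 1 of the 3 siI1 libraries (adjusted p from 0.0562 to 0.0616).

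RefSeq promoters (GRCh38.p14, 250 bases before to 50 after the gene start) were at hand for 6 of the 7 members, all but YWHAZ. They are rich in G and C, from 63.7% in SFN to 73.7% in YWHAH. Those of YWHAG and YWHAH are printed because both fell in MV3, with capitals marking the GC box (GGGCGG) and the cyclic AMP response element (TGACGTCA), searched on both strands:
YWHAG, chr7:76358942-76359241, minus strand: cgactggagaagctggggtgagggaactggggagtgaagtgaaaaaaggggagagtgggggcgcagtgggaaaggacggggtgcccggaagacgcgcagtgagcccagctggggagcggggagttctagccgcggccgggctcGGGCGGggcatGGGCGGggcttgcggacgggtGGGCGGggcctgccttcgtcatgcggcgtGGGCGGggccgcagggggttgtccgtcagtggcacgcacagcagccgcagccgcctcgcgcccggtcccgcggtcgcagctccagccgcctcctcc
YWHAH, chr22:31944285-31944584, plus strand: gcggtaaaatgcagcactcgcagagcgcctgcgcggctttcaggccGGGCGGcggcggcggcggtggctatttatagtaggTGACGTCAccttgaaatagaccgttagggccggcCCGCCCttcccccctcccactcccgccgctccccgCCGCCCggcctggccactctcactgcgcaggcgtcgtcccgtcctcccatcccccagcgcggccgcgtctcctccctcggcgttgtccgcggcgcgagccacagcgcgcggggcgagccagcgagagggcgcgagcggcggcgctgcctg
The GC box occurred 4 times in YWHAG and 3 times in YWHAH, and 45.0% of the 35116 promoters of this length hold at least 1. The cyclic AMP response element occurred once in YWHAH and in none of the other 5 promoters, against 1.85% of all promoters. Of the other motifs searched, the CCAAT box (CCAAT, in 34.6% of promoters) occurred in YWHAB, YWHAQ and SFN. An E2F site (TTTCGCGC, TTTGGCGC, TTTCCCGC or TTTGCCGC, in 3.31% of promoters) occurred in YWHAB, and the SRF CArG box (1.29%) in none of the 6. These matches are letters in a window, and no binding was measured.

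The changes of the members were not the same in the 4 lines. In the joint fit of all 24 libraries, the interaction of line and treatment passed for all 6 members tested (SFN was too low in ES2 and MV3), against 45.0% of the 12816 genes tested. The adjusted p was 5.8e-05 for YWHAG, 0.000255 for YWHAE, 0.000307 for YWHAQ, 0.00137 for YWHAH, 0.00648 for YWHAZ and 0.0338 for YWHAB. YWHAG was lowest in MV3 (-0.49) and nearest 0 in A549 (-0.04), and YWHAE spanned -0.14 in MV3 to 0.40 in PANC1. YWHAB had the narrowest range, -0.20 to 0.15, and its interaction was lost when any 1 of 11 libraries was left out (adjusted p up to 0.0605).

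Within a library, the ratio of YWHAZ to another member does not depend on how that library was scaled, apart from the pseudocount. The fall of YWHAZ in these libraries was known before the ratios were tested. The p-values below therefore describe that fall beside the other members and are not independent support for it. The log2 ratio of YWHAZ to YWHAQ changed by -1.12 in PANC1, -0.41 in MV3, -0.38 in ES2 and -1.09 in A549, or by -0.75 on average (exact permutation within lines, two-sided, adjusted p = 3.75e-05 over 6 pairs). The ratio to YWHAE changed by -0.75 on average (adjusted p = 5e-05) and that to YWHAB by -0.58 (adjusted p = 3.75e-05), by the same exact permutation test, each lower in 4 of 4 lines. The raw p of 1.25e-05 for YWHAB and YWHAQ is the smallest that the 160000 arrangements can give. The ratio to YWHAG changed by -0.39 (adjusted p = 0.0018, exact permutation) and was lower in 3 of 4 lines, with 0.13 in MV3. The ratio to YWHAH changed by -0.29 (adjusted p = 0.00736, exact permutation) and was lower in 2 of 4 lines, with 0.03 in ES2 and 0.14 in MV3. It rested on A549 and PANC1: without A549 the change was -0.20 (adjusted p = 0.101, exact permutation) and without PANC1 -0.14 (adjusted p = 0.137, exact permutation). The ratio to SFN could be formed in A549 and PANC1 and changed by -0.66 and -1.16 (adjusted p = 0.006, exact permutation over 400 arrangements, which is the adjusted value of the smallest p possible there, 0.005).

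**Figure D3:**
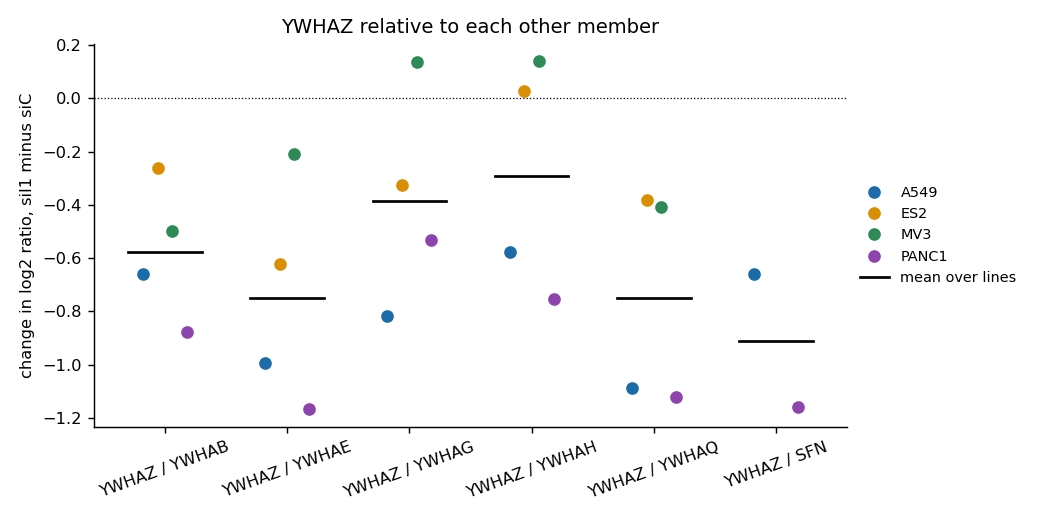
Change in the log2 ratio of YWHAZ to each other member, siI1 minus siC (y axis), for each pair (x axis). Points are the differences of the means of 3 libraries in each line, and black bars the mean over the lines used. All 4 lines lie below 0 for YWHAB, YWHAE and YWHAQ, while MV3 lies above 0 for YWHAG and YWHAH.

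The make-up of the family RNA changed with these shifts, as values without a test. YWHAQ carried the largest share of the summed family FPKM in each group, from 33.4 ± 0.43% in MV3 siC to 60.5 ± 0.87% in PANC1 siI1. YWHAZ carried 8.88% in A549 siC and 4.79% in A549 siI1, 9.41% and 4.79% in PANC1, 11.9% and 9.27% in ES2, and 13.3% and 11.5% in MV3. The family sum itself was 721 ± 21.5 FPKM in A549 siC and 732 ± 18.9 FPKM in A549 siI1, 579 ± 10.4 and 551 ± 17.5 FPKM in ES2, 581 ± 10.2 and 526 ± 8.30 FPKM in MV3, and 762 ± 40.0 and 872 ± 26.9 FPKM in PANC1. In A549 and PANC1, where YWHAZ fell most, the mean family sum in deposited FPKM was not lower in siI1 than in siC. In PANC1 this depends on the scaling. With libraries rescaled to 1 common sum, every member there had a negative log2 fold change, from -1.52 for YWHAZ to -0.35 for YWHAE.

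The order of the levels under YWHAQ depended on the line. In ES2 and MV3 siC it ran YWHAQ, YWHAE, YWHAG, YWHAZ, YWHAB, YWHAH and SFN, and each member lay above the next in every library. In A549 siC YWHAG, at 158 ± 6.08 FPKM, stood above YWHAE, at 114 ± 4.61 FPKM, and YWHAH and SFN overlapped. In PANC1 siC YWHAE and YWHAZ overlapped, as did SFN, YWHAB and YWHAH. In deposited FPKM, YWHAZ overlapped with YWHAB after knockdown in A549, MV3 and PANC1, which it did in no siC group.

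These orders rest on the gene length behind the FPKM. The listed length of YWHAZ, 8555 bases, is 1.71 times its MANE Select transcript, that of YWHAB (7933 bases) is 2.63 times, and those of YWHAG and SFN are 1.01 times. With MANE Select lengths YWHAQ remained highest in each group. YWHAB moved up to 138 ± 3.17 FPKM in MV3 siC, beside YWHAZ at 132 ± 3.80 FPKM, and the libraries of the pair overlapped. They also overlapped in A549 siC, with YWHAZ at 109 ± 9.68 FPKM and YWHAB at 110 ± 2.86 FPKM. After knockdown YWHAZ and YWHAB lay apart on this scale in A549 (59.9 ± 1.07 and 96.4 ± 6.19 FPKM) and MV3 (104 ± 10.7 and 153 ± 2.33 FPKM). So they did in PANC1 (71.3 ± 5.49 and 103 ± 5.59 FPKM), but not in ES2 (87.1 ± 3.13 and 86.7 ± 3.92 FPKM). In reads not divided by length, YWHAZ held from 19.6% of family reads in A549 siC to 26.1% in MV3 siC. The choice of length does not touch a fold change between siC and siI1 beyond the pseudocount.

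**Figure D4:**
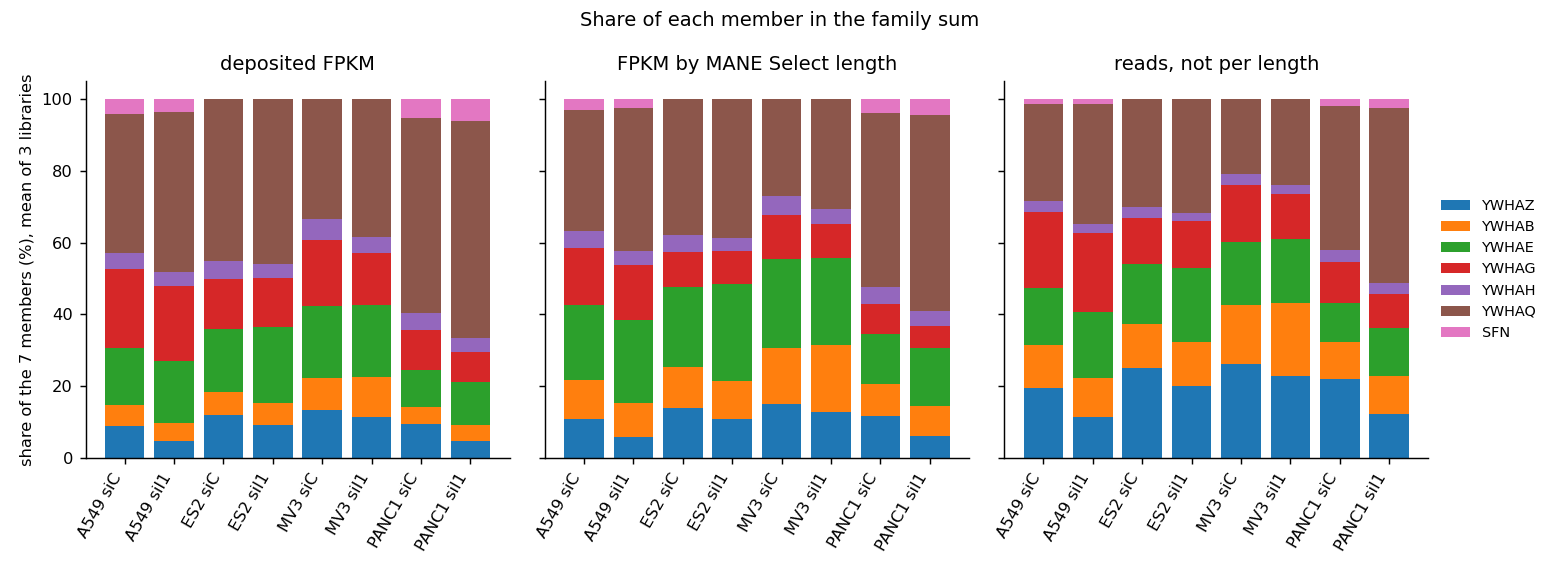
Share of each 14-3-3 gene in the family sum (y axis, percent, mean of 3 libraries) in the 8 groups (x axis), from the deposited FPKM, from FPKM recomputed with the MANE Select transcript length, and from reads not divided by length. YWHAQ holds the largest share on both per-length scales, the YWHAZ share is smaller in siI1 than in siC in all 4 lines on the 3 scales, and SFN is visible in A549 and PANC1.

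IGF2BP1 is known to bind short words of the type CAU followed by A, C or U. The 3′ untranslated region of the YWHAZ MANE Select transcript is 4170 bases long, at percentile 87.2 among 9205 protein-coding genes with a test in each line, and holds 51 such words, or 12.2 per kilobase (percentile 54.2). YWHAQ had 19.7 per kilobase (percentile 95.8), YWHAE 16.2, YWHAB 10.0, YWHAH 9.86, YWHAG 9.36 and SFN 0. The median over genes was 11.8 per kilobase and the middle of the distribution lay between 8.51 and 14.7. YWHAZ thus had the longest region of the family and a density near the median of all genes, and of the densest members YWHAQ passed as lower in no line and YWHAE in MV3. Whether these words relate to the changes was not tested. A word is a description of sequence, and no binding was measured in these libraries.

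Pseudogenes of the members, taken by their symbols, can take or lose reads. The tables list 20, of which 8 had no read in any library and 7 reached 0.5 FPKM on average in some line. YWHAEP1, at chr7:64433830-64434592, was the highest, with 5.87 ± 0.90 FPKM in A549 siC, 6.06 ± 0.69 in ES2 siC, 8.43 ± 0.88 in MV3 siC and 5.58 ± 1.32 in PANC1 siC. Its reads equalled 1.16 to 1.44% of those of YWHAE over the lines. YWHAZP3, at chr10:23136924-23137661, is 97.6% identical to YWHAZ over 738 aligned columns and shares 197 of the 4936 windows of 76 bases in the YWHAZ transcript. It had 3.28 ± 1.06 FPKM in A549 siC and 1.72 ± 0.55 FPKM in A549 siI1 on 4 to 13 reads per library (adjusted p = 0.137, limma), and its reads equalled 0.303 to 0.432% of those of YWHAZ. YWHAZP2, YWHAZP4, YWHAZP5, YWHABP2 and YWHAEP5 each had at most 0.196% of the reads of their parent gene. None of the 7 passed the test in a line where it was tested. Reads that fit a gene and its pseudogene equally well may have been left out of both, and how they were counted is not given in the sources used here.

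Among the 5 protein-coding genes whose pattern over the 24 libraries was most like that of YWHAZ, after centring log2(FPKM + 0.5) on the mean of each line, were HNRNPA0 (Pearson r 0.97), CLTC (0.96), CBL (0.95) and P4HB (0.95), out of 9649 compared. HNRNPA0 encodes an RNA-binding protein, CLTC the clathrin heavy chain, CBL a ubiquitin ligase for receptor tyrosine kinases and P4HB protein disulfide isomerase. The libraries share the treatment, so any gene that falls in siI1 in each line is alike by this measure, and 5% of the genes compared had an r above 0.83. On the log2 scale CLTC changed by -0.54, -0.42, -0.43 and -0.57 in A549, ES2, MV3 and PANC1, all past the test, and HNRNPA0 by -0.74, -0.31, -0.43 and -0.84, of which the ES2 value did not pass (adjusted p = 0.0962, limma). Among the other members r was 0.65 for YWHAH, 0.56 for YWHAG, 0.30 for YWHAB, -0.67 for YWHAE and -0.78 for YWHAQ.

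**Figure D5:**
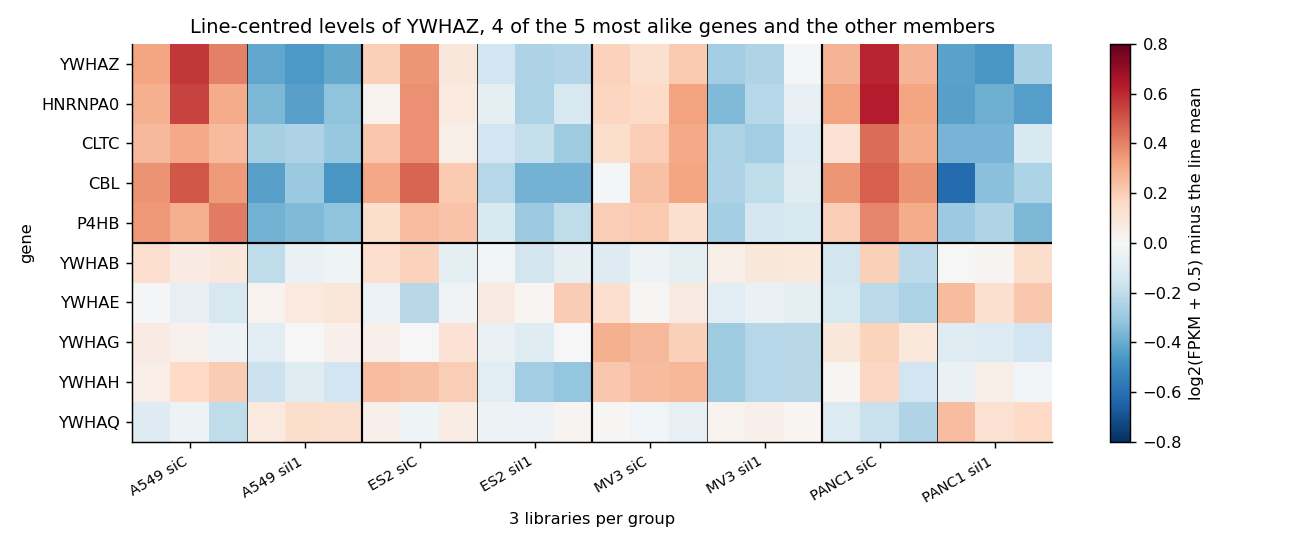
Level of YWHAZ, of 4 of the 5 genes with the most similar pattern and of the 5 other members tested in all lines (rows) in the 24 libraries (columns, 3 per group), as log2(FPKM + 0.5) minus the mean of the line (colour). In the upper 5 rows each siC library lies above each siI1 library of its line. Some lie close to the line mean, such as CBL at -0.009 in the first MV3 siC library. The second siC library of PANC1 is the darkest for YWHAZ, while YWHAE and YWHAQ show the opposite colours in A549 and PANC1.

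Partners of the 14-3-3 proteins were described by gene lists drawn from general knowledge. Of 13 kinase signalling clients, such as the RAF kinases, 3, 3, 4 and 2 were lower and 1, 0, 2 and 2 higher in A549, ES2, MV3 and PANC1, with medians between -0.17 and 0.03 against medians of all genes between -0.04 and 0.01. Of all genes tested 7.83, 13.0, 19.5 and 13.4% were lower and 5.93, 10.5, 16.3 and 11.3% higher in that order of lines, the background for the counts of every list here. CBL was the client lower in all 4 lines, with log2 fold changes of -0.80, -0.66, -0.36 and -0.80 in that order. Of the transcription regulator clients, 11 or 12 of 13 were tested and 1 to 4 were lower and 1 to 5 higher per line, with medians from -0.21 to 0.15. YAP1, the Hippo pathway coactivator that 14-3-3 proteins hold in the cytoplasm, fell in all 4 lines (-1.40, -0.58, -0.64 and -1.20), and its paralog WWTR1 rose in A549 (0.44), ES2 (0.49) and MV3 (0.19) and fell in PANC1 (-0.19).

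Of 8 cell cycle and apoptosis clients, 5 were lower and 1 was higher in MV3, 2 and 2 in PANC1, and 1 and 0 in both A549 and ES2, with medians from -0.19 to -0.05. CDC25A, a phosphatase that activates cyclin-dependent kinases, fell in ES2 (-0.62), MV3 (-0.96) and PANC1 (-0.31) and had 0.04 in A549 (adjusted p = 0.904, limma). Of 14 cytoskeleton and metabolism clients, 11 to 13 were tested, and 2 to 5 were lower and 0 to 3 higher per line, with medians from -0.17 to -0.03. SSH1, a cofilin phosphatase, rose in A549 (0.56), MV3 (0.39) and PANC1 (0.53) and had 0.27 in ES2 (adjusted p = 0.0687, limma). Of 16 kinases that phosphorylate 14-3-3 binding sites, 1 to 5 were lower and 1 to 3 higher per line, with medians from -0.10 to 0.04. RPS6KA3 fell in A549 (-0.57), MV3 (-0.27) and PANC1 (-0.93), and MAPKAPK2 in A549 (-0.51), ES2 (-0.37) and MV3 (-0.17).

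Of 7 genes taken from pathways that the study mentions around 14-3-3 zeta, 3 of which are also in the lists above, 1 was lower in each line and 2, 2, 4 and 1 were higher in A549, ES2, MV3 and PANC1, with medians from -0.04 to 0.15. The one that fell was SKP2, a subunit of a ubiquitin ligase that acts on CDKN1B, in all 4 lines (-0.62, -0.38, -0.47 and -0.47), and STAT3 rose in all 4 (0.43, 0.58, 0.40 and 0.37). Of 20 p53 targets, listed because SFN is one, 7, 6, 7 and 2 were lower and 3, 4, 6 and 4 higher in the same order, with medians from -0.18 to 0.04. CDKN1A fell in A549 (-0.43), ES2 (-0.94) and MV3 (-0.57), MDM2 in A549 (-0.47), MV3 (-0.27) and PANC1 (-0.85), SESN2 in A549 (-0.94), ES2 (-1.25) and MV3 (-0.46), and FDXR in A549 (-0.63), ES2 (-0.55) and PANC1 (-0.59). SESN1 (0.47, 0.52, 0.63 and 0.62) and CCNG1 (0.82, 0.68, 0.16 and 0.30) rose in all 4 lines, so the list had members in both directions in each line. The counts moved with the scaling. With libraries rescaled to 1 common sum, 57 list genes in place of 30 passed in PANC1 and 35 in place of 47 in MV3. In A549 22 passed in place of 27, and in ES2 28 in place of 29. Over all genes, that scaling called 8870 lower and 96 higher of 16238 in PANC1, against 2131 and 1796 of 15846 in the deposited values. It called 2740 and 1941 of 16385 in MV3, 1444 and 757 of 18412 in A549, and 1419 and 1780 of 16940 in ES2. In MV3 2 transcription regulator clients passed in place of 6 and 4 kinases of 14-3-3 sites in place of 7, in ES2 5 such clients in place of 3 and 3 such kinases in place of 5, and in A549 6 p53 targets in place of 10.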

How the data were processed

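Total RNA-seq of 24 libraries was analysed from 4 deposited tables, 1 per line. Per the labels, the authors trimmed reads with cutadapt (version 1.14), aligned paired reads of 76 bases to hg38 with HISAT2 (2.1.0), sorted them with SAMtools (1.5), counted them per gene with featureCounts (1.5.3) on an Ensembl annotation and compared groups with edgeR (3.30.3). The authors deposited FPKM values, a unit the tables do not name: a value times the listed length was a whole multiple of a fixed step in each library for 100% of values (tolerance 0.01 of a step), which also gave the reads. The authors' own columns of log2 fold change, p-value and FDR were not used.

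Each line was fitted with limma (3.58.1, R 4.3.3, lmFit and eBayes with trend, two-sided) on log2(FPKM + 0.5), over genes averaging 0.5 FPKM or more, siI1 against siC, and p-values were adjusted by Benjamini-Hochberg over the whole table tested. The same fits were tested on simulated data. Differences between lines used all 24 libraries and the interaction F test. YWHAZ ratios were tested by exact permutation of labels within lines. Standard errors and 95% intervals come from the fits and cover the spread of 3 libraries. All 24 replicate pairs differed by more than counting noise (chi-square per gene 1.54 to 15.1).

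The members and lists were chosen with earlier results of these data known. Genes named are the 7 members, IGF2BP1, list genes changed alike in at least 3 lines, the 5 genes most like YWHAZ (1 of which is not reported here) and pseudogenes with at least 0.5 FPKM. Coordinates, MANE Select transcripts and sequences are from GENCODE 44 (hg38). Alternatives were other pseudocounts, filters and scalings, voom on recovered reads, a replicate block, and leaving out each library. Python 3.11.15, numpy 2.4.6, pandas 2.3.3, scipy 1.17.1, biopython 1.88 and matplotlib 3.10.9 were used.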

Additional observations from a re-analysis of the deposited data

Results flagged for a closer look

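The change after IGF2BP1 knockdown differed between the 4 lines for each member tested in all of them, by the interaction of line and treatment in limma. The same test passed for 45.0% of all 12816 genes tested, and the YWHAB result was lost without any 1 of 11 libraries. The adjusted p was 0.00648 for YWHAZ (log2 fold changes from -0.86 to -0.35), 0.0338 for YWHAB (-0.20 to 0.15), 0.000255 for YWHAE (-0.14 to 0.40), 5.8e-05 for YWHAG (-0.49 to -0.04), 0.00137 for YWHAH (-0.49 to -0.02) and 0.000307 for YWHAQ (-0.04 to 0.35). It was 9.8e-05 for IGF2BP1 itself, whose fall ranged from -1.83 in PANC1 to -1.32 in A549. PANC1 cells were collected later than the others, so line and time cannot be told apart there.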

How the results depend on the processing

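YWHAZ and IGF2BP1 stayed lower and past the threshold in every line under all 15 alternatives, with log2 fold changes of YWHAZ from -0.91 to -0.79 in A549, -0.49 to -0.35 in ES2, -0.44 to -0.30 in MV3 and -1.52 to -0.66 in PANC1. Same-numbered siC and siI1 libraries did not deviate together (correlations -0.06 to 0.07 over 12 pairs). With a replicate block 1 member passed in A549 in place of 3, since YWHAH (adjusted p = 0.081) and YWHAQ (0.118) were lost. Over all 18411 genes tested in A549, the block left 622 lower and 379 higher in place of 1441 and 1092. The block also lost YWHAE in MV3 (0.0865) and the interaction of YWHAB (0.09) and no other member call. With no filter on low values YWHAQ in A549 (0.0973) and PANC1 (0.0658) and YWHAE in MV3 (0.0567) were lost, and voom gained YWHAB in A549 (-0.19, adjusted p = 0.0162), YWHAE in ES2 (0.20, 0.0115) and SFN in PANC1 (0.39, 0.014). With libraries rescaled to the same FPKM sum, 3 members passed in MV3 and 57 list genes in PANC1 in place of 30. Over all genes it called 2740 lower and 1941 higher of 16385 in MV3, and 8870 and 96 of 16238 in PANC1. YWHAB (0.0995) and YWHAE (0.0646) in MV3 and YWHAQ in A549 (0.177) were lost. YWHAB in A549 (0.0423) and YWHAH in PANC1 (0.00241) were gained as lower. That scaling turned the log2 fold changes of YWHAB (-0.64), YWHAE (-0.35), YWHAQ (-0.40) and SFN (-0.36) in PANC1 and of YWHAQ in ES2 (0.027), and scaling by the median ratio turned YWHAH in PANC1 (0.015); the 7SL RNA share moved with the common sum. Left out 1 at a time, libraries gave 1 to 2 members passing in A549, 2 to 3 in ES2, 4 to 5 in MV3 and 2 to 5 in PANC1. For the interaction 5 to 6 passed, and YWHAH in PANC1 ranged from -0.099 to 0.061. Over all genes these fits called 796 to 1036 lower and 526 to 761 higher in A549. The ranges were 1497 to 1720 and 1141 to 1423 in ES2, and 2498 to 3037 and 1903 to 2557 in MV3. In PANC1 they were 1237 to 1954 and 1041 to 1888. YWHAZ relative to YWHAH lost its call without A549 (-0.20) or PANC1 (-0.14), as did YWHAZ relative to SFN (-1.16 and -0.66), where 1 line cannot reach the threshold by exact permutation. The YWHAZ share was 19.6, 11.4, 24.98, 20.1, 26.1, 22.8, 22.0 and 12.2% of reads and 10.8, 5.89, 13.8, 10.7, 14.96, 12.7, 11.6 and 5.97% by MANE Select length, in A549, ES2, MV3 and PANC1 with siC before siI1. The last scale and a filter of at least 20 reads, under which SFN in PANC1 passed (adjusted p = 0.0316), were chosen after seeing the data. edgeR and DESeq2 on recovered reads were planned and not run, since the deposited unit is FPKM and not counts. The voom fit on recovered reads was also planned and was run. SFN had 0 to 5 reads in ES2 and MV3 libraries, all of them deeper than those of A549, where it had 116 to 205.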
